A study of Mus musculus with 6 samples.

Results

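The regions described here are those bound by Lsd1 in wild-type C2C12 cells in both differentiation media, but without a peak in cells that overexpress LSD1. They were chosen by the deposited peak lists of 3 conditions: all peaks were pooled, peaks overlapping by at least 1 bp were merged into one region, and a region was kept if it held a peak of each wild-type library and none of the overexpressing one. This left 2485 regions, which is 4.38% of the 56729 merged regions of the series and 17.6% of the 14149 regions found in both wild-type libraries. The presence or absence of a peak is therefore what defines these regions and is not a finding, and no test was run on it.

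C2C12 is an immortalised mouse myoblast line, and all 3 conditions were taken at day 1 of differentiation for chromatin immunoprecipitation of Lsd1 with sequencing (ChIP-seq). The first was wild-type C2C12 in myogenic medium (horse serum), the second was wild-type C2C12 in adipogenic medium, and the third was LSD1(OE), which is C2C12 with Flag-tagged LSD1 overexpressed, in the same adipogenic medium. The adipogenic cocktail contained IBMX, indomethacin, dexamethasone, insulin, T3 and rosiglitazone. In the LSD1(OE) line the transgene came from a lentivirus with tetracycline control, the cells had been selected with G418, and doxycycline was given before and during differentiation. The level of LSD1, the lentiviral line and doxycycline therefore cannot be told apart in what follows. There was 1 ChIP library with its input per condition and no replicate, so what separates conditions below separates single libraries. No expression was measured in this series, so the identity of the cells was not checked against marker genes.

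Lsd1, encoded by Kdm1a, is a demethylase that removes methyl groups from lysine 4, and in some settings lysine 9, of histone H3. It commonly sits in a complex with CoREST proteins and histone deacetylases, at promoters and at enhancers of active or primed genes. In myoblasts it has been tied to the activation of muscle genes, and in fat precursors to differentiation into adipocytes.

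The LSD1(OE) library was intermediate in depth. After removal of duplicate reads the myogenic, adipogenic and LSD1(OE) ChIP libraries held 46155625, 63915769 and 55193310 tags, with 43426, 18893 and 33533 peaks. Peaks took up 7.12, 3.20 and 5.28% of those tags. Every deposited peak had a score of at least 50, where the score is 10 times −log10 of the p-value that the peak caller MACS gave it, and an FDR of at most 0.73%. The weakest peak held 27 tags in the myogenic, 35 in the adipogenic and 30 in the LSD1(OE) library. The smallest number of peaks was in the wild-type adipogenic library, which limits how many regions could be shared by both wild-type libraries.

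The sequence of 6 regions is given because they stand for the kinds of place described below: a pair of strong muscle gene promoters (Pacsin3 and Sh3bgr), a pair of muscle gene promoters whose transcripts follow LSD1 (Lmod3 and Srl), and the introns of Nos1 and Nhsl1. These 6 were picked after their values and motifs had been seen. Each line gives the 300 bases around the summit of the myogenic peak, on the forward strand of GRCm38 (mm10), 5′ to 3′, as in the RefSeq assembly. Capitals mark the motifs searched, on both strands: the E-box CAGCTG that MyoD and myogenin recognise with E proteins, the AP-1 site TGANTCA, the Tead motif CATTCC, the Runx motif TGTGGT, the C/EBP motif TTGCNNAA and the GC box GGGCGG of Sp1 and Klf factors. Of the 13 motifs searched, the others had no match in these windows, among them the E-box CACGTG of Usf and Myc factors, the Ets motif CCGGAAGT, the CRE TGACGTCA, and the NRF1, Mef2 and glucocorticoid receptor motifs.
Pacsin3 promoter, chr2:91256534-91256833: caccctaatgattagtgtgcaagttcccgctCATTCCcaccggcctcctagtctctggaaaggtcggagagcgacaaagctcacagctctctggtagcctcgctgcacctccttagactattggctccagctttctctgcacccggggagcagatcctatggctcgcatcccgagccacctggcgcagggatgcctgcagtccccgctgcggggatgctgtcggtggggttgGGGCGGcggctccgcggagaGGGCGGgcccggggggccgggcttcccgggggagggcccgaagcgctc
Sh3bgr promoter, chr16:96200379-96200678: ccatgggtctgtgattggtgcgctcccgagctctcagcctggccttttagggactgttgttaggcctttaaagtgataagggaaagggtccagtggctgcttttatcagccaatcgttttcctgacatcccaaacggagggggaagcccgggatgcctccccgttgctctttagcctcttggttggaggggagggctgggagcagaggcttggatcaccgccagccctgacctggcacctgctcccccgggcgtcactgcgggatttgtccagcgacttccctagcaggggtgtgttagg
Lmod3 promoter, chr6:97252646-97252945: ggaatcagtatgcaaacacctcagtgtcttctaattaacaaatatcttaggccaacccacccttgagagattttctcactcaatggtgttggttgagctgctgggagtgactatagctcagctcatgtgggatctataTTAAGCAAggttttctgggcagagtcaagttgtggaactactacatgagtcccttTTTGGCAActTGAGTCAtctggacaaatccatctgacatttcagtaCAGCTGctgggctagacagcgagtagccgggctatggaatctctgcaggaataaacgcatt
Srl promoter, chr16:4521727-4522026: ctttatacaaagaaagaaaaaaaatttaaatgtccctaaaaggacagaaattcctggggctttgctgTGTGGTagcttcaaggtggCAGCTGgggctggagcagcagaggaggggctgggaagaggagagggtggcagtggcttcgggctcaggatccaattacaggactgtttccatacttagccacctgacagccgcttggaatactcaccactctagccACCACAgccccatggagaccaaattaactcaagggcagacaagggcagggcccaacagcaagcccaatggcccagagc
Nos1 intron, chr5:117880958-117881257: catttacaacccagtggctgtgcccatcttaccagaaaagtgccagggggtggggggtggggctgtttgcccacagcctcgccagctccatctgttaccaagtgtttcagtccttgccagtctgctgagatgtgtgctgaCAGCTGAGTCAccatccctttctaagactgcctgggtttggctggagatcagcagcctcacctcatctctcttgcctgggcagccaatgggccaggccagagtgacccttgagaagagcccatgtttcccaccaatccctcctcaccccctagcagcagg
Nhsl1 intron, chr10:18430205-18430504: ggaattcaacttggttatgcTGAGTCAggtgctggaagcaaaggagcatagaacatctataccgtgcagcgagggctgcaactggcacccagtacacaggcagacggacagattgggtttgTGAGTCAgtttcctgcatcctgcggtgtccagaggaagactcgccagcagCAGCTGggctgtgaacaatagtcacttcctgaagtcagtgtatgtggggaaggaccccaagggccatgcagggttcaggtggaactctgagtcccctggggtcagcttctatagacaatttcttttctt
The Sh3bgr window, of 59.3% GC, held none of the 13 motifs. The Lmod3 window held 1 E-box, 1 AP-1 site and 2 C/EBP motifs and was 45.0% GC, against 66.7% for Pacsin3. In the Nos1 intron the E-box and the AP-1 site overlapped by 2 bases, and in the Nhsl1 intron 1 E-box stood with 2 AP-1 sites. A match to letters is a description of the sequence and not of a bound factor.

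The regions lay mostly away from promoters. A promoter was taken as a centre within 2000 bp of a transcription start site (TSS) of a curated RefSeq transcript. By this definition 654 of the 2485 regions (26.3%, 95% Wilson interval 24.6 to 28.1) were at promoters, 913 (36.7%) were in introns, 864 (34.8%) were intergenic, 34 (1.37%) were in exons and 20 (0.805%) in 3′ UTRs. Of the 11664 regions with a peak in all 3 libraries 45.8% (44.9 to 46.7) were at promoters, and of the 6917 regions shared by the myogenic and LSD1(OE) libraries 36.2% were. Of the 1389 regions shared by the 2 adipogenic libraries 9.22% were at promoters. The promoter share of the regions of both wild-type libraries without LSD1(OE) was close to the 23.6% of all merged regions. These intervals cover counting error alone.

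**Figure D1:**
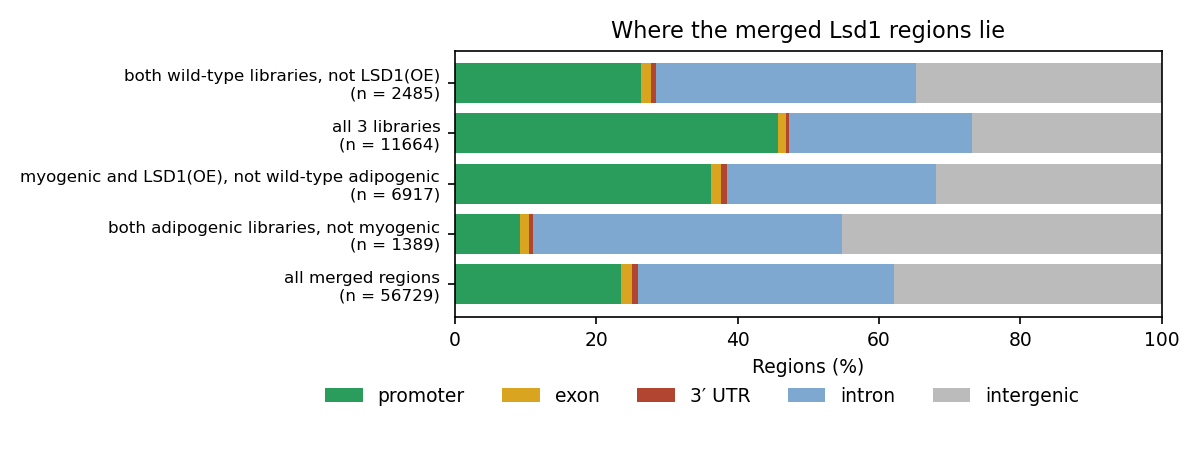
Percentage of merged regions (horizontal axis, 0 to 100) whose centre lies in a promoter (within 2000 bp of a TSS), exon, 3′ UTR, intron or between genes, for 4 classes of regions and for all 56729 merged regions. The regions of both wild-type libraries without LSD1(OE) have 26.3% at promoters, below the 45.8% of regions of all 3 libraries and above the 9.22% of regions of both adipogenic libraries.

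Most of the regions carried weak to moderate peaks. The median region was 1288 bp long, and 2381 of the 2485 held exactly 1 peak of each wild-type library. In the myogenic library their strongest peaks had a median of 64 tags (quartiles 45 and 91) and a median score of 161 (quartiles 91.6 and 274). In the adipogenic library the medians were 69 tags (58 and 86) and a score of 82.9 (62.7 and 114). MACS had scaled the ChIP tags up by 1.90 in the myogenic, 1.28 in the adipogenic and 1.82 in the LSD1(OE) library before scoring, so scores rank peaks within a library and are not on one scale across libraries. Regions of all 3 libraries had higher medians in each, with scores of 388 in the myogenic and 152 in the adipogenic library. Of the regions without LSD1(OE), 65.6% had an adipogenic score under 100, against 28.6% of the regions of all 3 libraries.

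The share without an LSD1(OE) peak was lower in each stronger group of wild-type peaks. When the 14149 regions of both wild-type libraries were split into quintiles by their myogenic score, 38.6% (36.8 to 40.4) of the weakest quintile had no LSD1(OE) peak, then 25.4, 15.02 and 7.14%, and 1.66% (1.25 to 2.20) of the strongest. Split by the adipogenic score, the shares were 37.3, 26.1, 16.5, 6.57 and 1.31%. So 47 regions of the strongest myogenic quintile, with scores of 687 or more, and 37 of the strongest adipogenic quintile lacked an LSD1(OE) peak. The share was lower among promoters than elsewhere in each adipogenic quintile, with 26.8% against 43.8% of other regions in the weakest and 0.754% against 1.80% in the strongest, where the intervals (0.410 to 1.38 and 1.24 to 2.60) overlapped. Peak strength and presence of the third peak therefore moved together, and the part of peak strength in the absence of an LSD1(OE) peak was not tested.

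**Figure D2:**
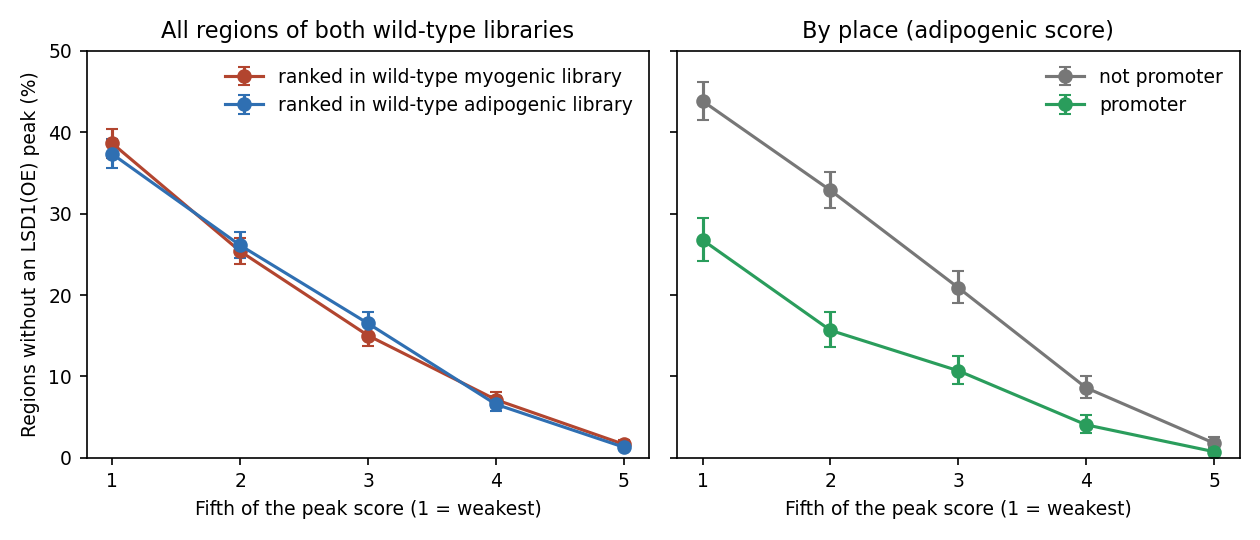
Percentage of regions of both wild-type libraries that hold no LSD1(OE) peak (vertical axis) against the quintile of the wild-type peak score (1 weakest, 5 strongest), for all 14149 regions on the left and for promoters and other regions on the right, ranked on the right by the adipogenic score. Bars are 95% Wilson intervals, and the share falls from 38.6 to 1.66% with the myogenic score and from 37.3 to 1.31% with the adipogenic score.

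No order of the media could be drawn from the peaks of the regions, since it turned with the measure. Within a region the myogenic and adipogenic summits lay a median of 165 bp apart and within 100 bp in 33.8%, beside 154 bp and 38.2% in regions of all 3 libraries. Merging keeps overlapping peaks, which limits this distance in both classes. The density, which is tags per kb of peak scaled to filtered tags in units of 1e+06, had a median of 1.29 in the myogenic and 1.07 in the adipogenic library. The median of the log2 ratio of adipogenic over myogenic density was −0.25. For regions of all 3 libraries that median was −0.35. With the deposited fold enrichment of MACS in its place the median log2 ratio was 0.28. LSD1(OE) peaks of 900 to 1100 bp had a median density of 1.16 and a 5th percentile of 1.02. The wild-type peaks of that length in the regions had medians of 1.28 (myogenic) and 1.08 (adipogenic). All peaks of that length in the same libraries had medians of 1.27 and 1.09, close to those of the regions.

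Some of the regions lay near an LSD1(OE) peak without touching it. Distances of other regions were not summarised, so whether these are particular to the class was not tested. The median distance to the nearest LSD1(OE) peak was 7991 bp, with quartiles of 2179 and 26572 bp. Of the 2485 regions, 210 (8.45%) had one within 500 bp, 578 (23.3%) within 2000 bp and 1365 (54.9%) within 10000 bp, and 346 (13.9%) had none within 50000 bp. The regions nearest to the limit of the rule were in an intron with Myo10 as the nearest gene, 4 bp from an LSD1(OE) peak, in a 3′ UTR with Fa2h as the nearest gene, 5 bp away, and in an intron near Capn2, 13 bp away. On the other side of the limit, regions near Ints6, Clip1 and Relt were left out for an LSD1(OE) peak that overlapped a wild-type one by 2, 11 and 18 bp. Such narrow overlaps were rare, with 21 of the 11664 regions of all 3 libraries overlapping by 100 bp or less.

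**Figure D3:**
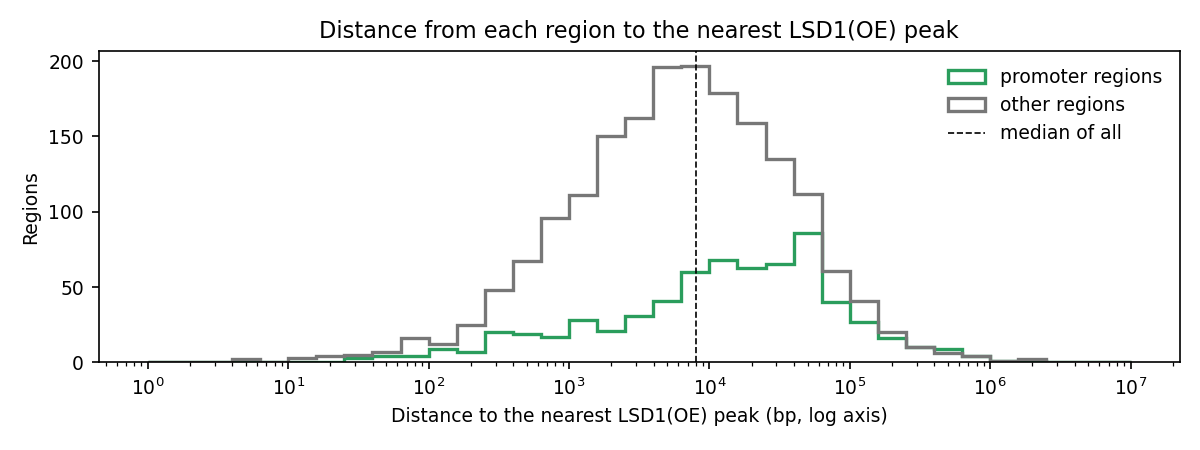
Number of regions (vertical axis) by the distance in bp from the region to the nearest LSD1(OE) peak (horizontal axis, logarithmic), for promoter regions and others. The dashed line is the median of all 2485 regions, 7991 bp, and 210 regions lie within 500 bp of an LSD1(OE) peak.

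The regions were spread over all autosomes and chromosome X. The share of regions of both wild-type libraries without an LSD1(OE) peak ran from 11.0% (7.94 to 15.05) on chromosome 18 and 12.03% (9.27 to 15.5) on chromosome 12 to 21.7% (19.3 to 24.4) on chromosome 10 and 22.1% (19.5 to 24.9) on chromosome 4, and it was 31.0% on chromosome X with its 58 regions. On chromosome 10 the share was 31.8% (25.8 to 38.6) in the first 40 Mb, where 64 of 201 regions had no LSD1(OE) peak, and 19.2% (16.6 to 22.05) in the rest. The wild-type peaks were also weaker there, with a median myogenic score of 249 against 395, and the part of peak strength in this difference was not tested. Chromosome 15 held the most, 251 regions or 10.1%, alongside 9.59% of all regions of both wild-type libraries. Its regions of both wild-type libraries had the highest median scores of any chromosome, 398 in the myogenic and 169 in the adipogenic library. The stretch of chromosome 10 was picked after the shares of all 10 Mb windows had been seen, and its interval takes no account of that. Over the 169 windows with at least 30 regions of both wild-type libraries, the share ran from 3.33 to 35%. Windows on other chromosomes were as high, with 34.4% at 40 to 50 Mb of chromosome 7 and 33.7% at 90 to 100 Mb of chromosome 8.

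The regions had 2106 nearest genes, which is 8.04% of the 26180 annotated genes, and most of these genes had one region. A single region was assigned to 1830 genes, 2 regions to 205, and 3 or more to 71. Asap1, an Arf GTPase-activating protein of the cytoskeleton, had the most with 8 of its 18 regions of both wild-type libraries. The 8 genes with 5 such regions were Nhsl1, a cytoskeletal regulator, and Cdh18, a cadherin, with 5 of 6 each, Tnc, the matrix protein tenascin C, with 5 of 7, Creb5 and Dap with 5 of 8, 0610039H22Rik with 5 of 9, Sntb1 with 5 of 11 and Ywhaz with 5 of 15, where the share over all regions was 17.6%. Asap1, Cdh18, Dap, Sntb1 and Ywhaz are all on chromosome 15, which held 10.1% of the regions of the class. At most of the 2106 genes LSD1(OE) cells did have an Lsd1 peak elsewhere. Of these genes, 1534 (72.8%) were also the nearest gene of a region that held an LSD1(OE) peak, and 572 (27.2%) were not. Of all annotated genes, 647 genes had a promoter region of this class (2.47%), 97 of them (14.99%) also had a promoter region with an LSD1(OE) peak, and 377 (58.3%) had no region at all with one. Of all annotated genes, 27.5% were the nearest gene of a region of all 3 libraries. For regions of the myogenic and LSD1(OE) libraries this was 19.3%. The share of all annotated genes with any LSD1(OE) region was not counted, so the 27.2 and 58.3% have no baseline here. A gene with a long or isolated locus has more chances to be the nearest gene of any region, and these shares take no account of it.

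To name regions, they were ranked by the lower of their 2 score percentiles, one within each wild-type library. The strongest region lay on chromosome 15 over the first TSS of Deptor and the TSS of Gm9920, a gene model on the opposite strand. Deptor encodes an inhibitor of the mTOR kinase. The region (chr15:55111000-55115582) held 386 tags at a score of 1407 in the myogenic library and 449 tags at a score of 617 in the adipogenic library. The nearest LSD1(OE) peak was 648 bp away, upstream of the gene. Around Deptor, from 30 kb before its first TSS to 130 kb after it, 4 of 19 merged regions were of both wild-type libraries without LSD1(OE) and 5 were of all 3 libraries. Another region of the class there, in an intron of Deptor (chr15:55119672-55123154), scored 511 and 348. At the second Deptor TSS, 21.1 kb downstream, the LSD1(OE) library had its strongest peak of the locus with 1235 tags and a score of 1737, and the wild-type libraries had peaks of 1151 and 176 in that region. LSD1(OE) peaks were thus listed on both sides of the first TSS and not over it. Deptor is one of the genes whose transcript the study found raised with LSD1(OE), and this locus was singled out after its values were seen.

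**Figure D4:**
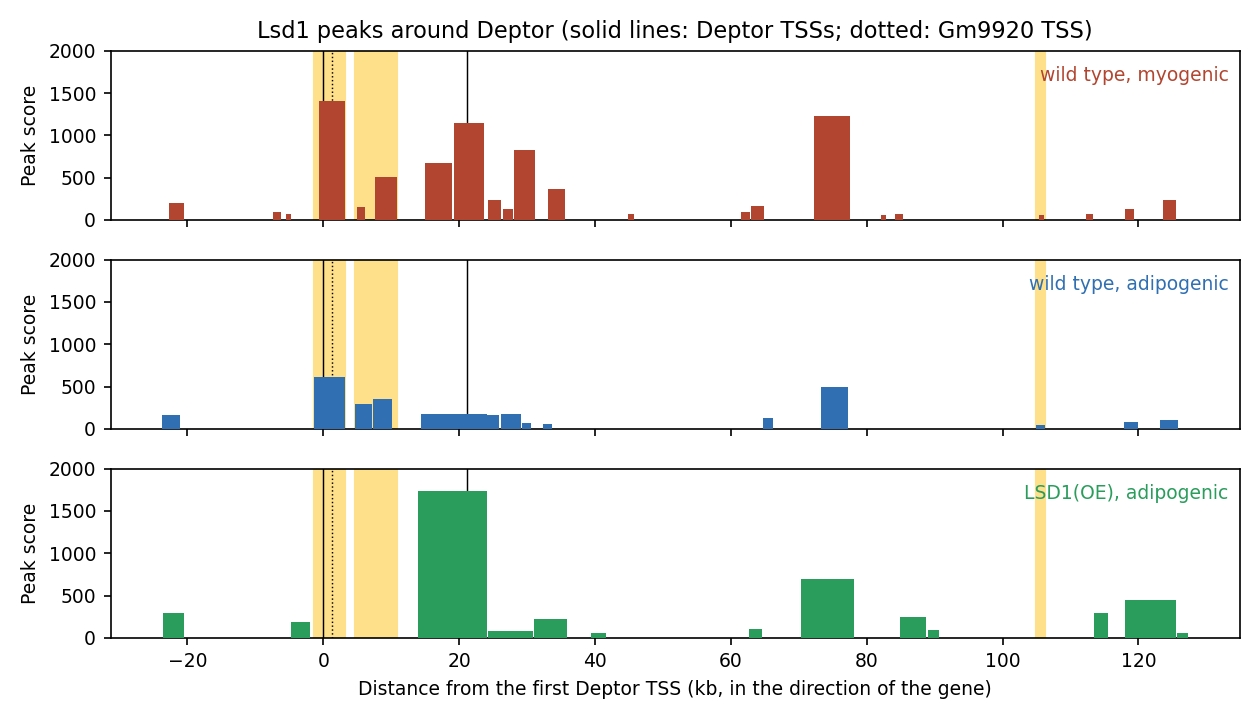
Peaks around Deptor in the 3 libraries, each bar spanning a peak, with its score (10 times −log10 p) on the vertical axis and the distance from the first Deptor TSS in kb on the horizontal axis. Yellow bands are the 4 regions of both wild-type libraries without LSD1(OE), the solid lines are the 2 Deptor TSSs and the dotted line is the Gm9920 TSS. The wild-type libraries have peaks of 1407 and 617 over the first TSS where the LSD1(OE) library lists none, while its peak at the second TSS scores 1737.

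Next among promoters were Pvt1 and Mmp15. Pvt1, a long non-coding RNA gene downstream of Myc, had a region at chr15:62036688-62041221 with 327 tags and a score of 1027 in the myogenic library and 439 tags and a score of 524 in the adipogenic library. Mmp15, a membrane-bound matrix metalloproteinase, had 185 tags and a score of 764 in the first and 195 tags and a score of 349 in the second, at chr8:95351317-95353838. No LSD1(OE) peak lay nearer than 18246 bp to the Mmp15 region, and no region assigned to the gene held one.

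Sh3bgr, Pacsin3, Txlnb and Myorg were 4 more of the 12 first-ranked promoters, grouped here after their values were seen. Sh3bgr, an SH3-binding protein abundant in heart and skeletal muscle, had a region at chr16:96199569-96201437, centred 33 bp after the TSS, with 121 tags (score 481) in the myogenic and 146 tags (score 304) in the adipogenic library, and its nearest LSD1(OE) peak was 50079 bp away. Pacsin3, the muscle form of an endocytic adaptor, had 173 tags (score 442) and 128 tags (score 304) at chr2:91256036-91258485. Txlnb, the muscle form of taxilin, had 185 tags (score 543) and 124 tags (score 239), centred 1 bp from its TSS at chr10:17794793-17797647. Myorg, a glycosidase named for its effect on muscle differentiation, had 111 tags (score 380) and 130 tags (score 261). No LSD1(OE) peak lay nearer than 6167 bp to any of these 4 promoter regions.

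The other first-ranked promoters were of genes with wider use. Kitl, the ligand of the Kit receptor, had a region centred 55 bp before its TSS with scores of 654 and 264, and an LSD1(OE) peak lay 475 bp away. Bbx, an HMG-box protein, had scores of 543 and 255 and no LSD1(OE) peak nearer than 95362 bp. Rpl13a, a ribosomal protein gene, had scores of 382 and 268, Cdc14a, a phosphatase of the cell division cycle, had 417 and 227, and Vps37c, an ESCRT-I subunit, had 424 and 226. Of the nearest genes of the 12 first-ranked promoter regions, Vps37c alone had another promoter region with an LSD1(OE) peak.

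**Figure D5:**
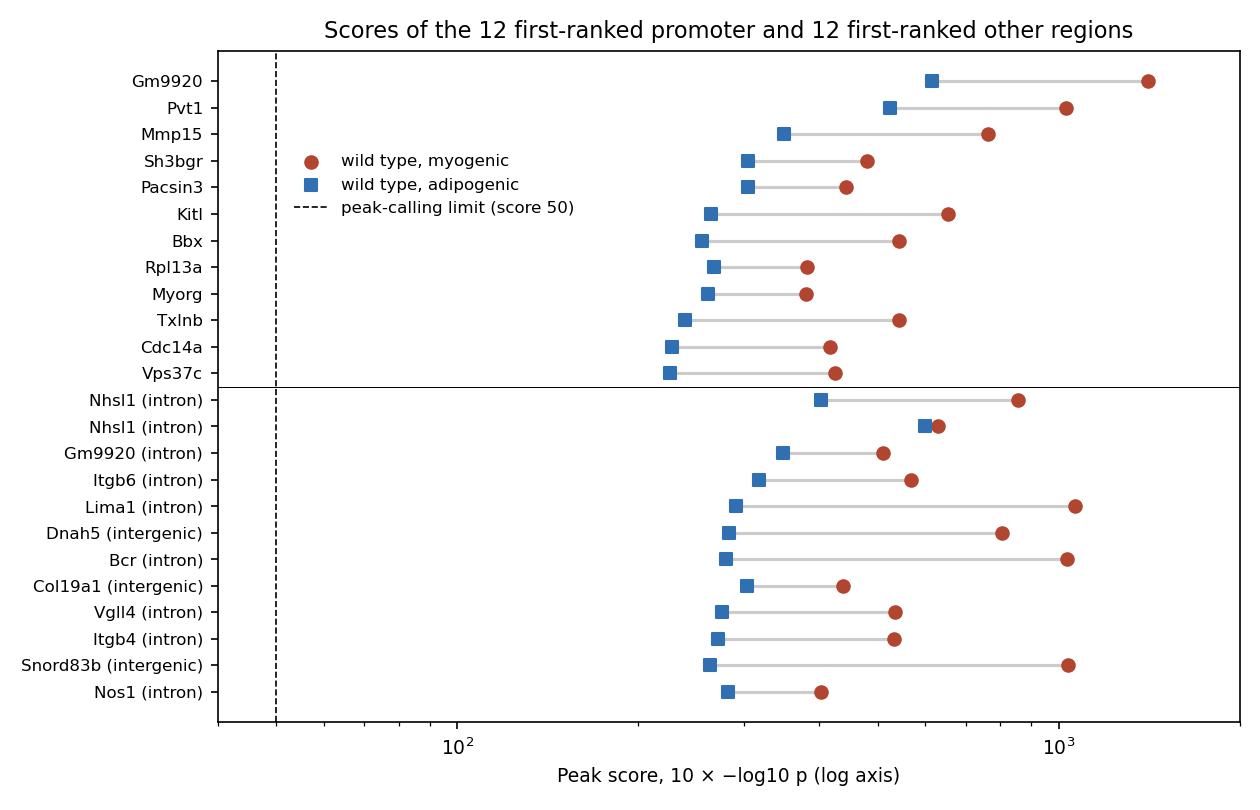
Peak scores (horizontal axis, logarithmic, 10 times −log10 p) in the wild-type myogenic and adipogenic libraries for the 12 first-ranked promoter regions (upper part) and the 12 first-ranked other regions (lower part), named by their nearest gene. The dashed line is the peak-calling limit of 50, which the rule makes every region of the class reach in both libraries. All 24 have the higher score in the myogenic library, whose scores are on a larger scale.

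Away from promoters, 2 introns of Nhsl1 ranked first. The first (chr10:18481932-18484593) had 195 tags and a score of 855 in the myogenic and 246 tags and a score of 403 in the adipogenic library, and the second (chr10:18429073-18432200) had 214 tags and a score of 631, and 287 tags and a score of 599. Neither had an LSD1(OE) peak nearer than 20599 bp. An intron of Itgb6, an integrin, scored 568 and 318. An intron of Sap30bp, with the integrin gene Itgb4 as the nearest, scored 533 and 272 and lay 239 bp from an LSD1(OE) peak. Introns of Lima1, an actin-binding LIM protein, and Bcr, a regulator of small GTPases, scored 1065 and 291, and 1031 and 279. An intron of Nos1, the neuronal nitric oxide synthase that muscle fibres hold at the membrane, had 102 tags (score 403) and 134 tags (score 282) at chr5:117880325-117881885, with no LSD1(OE) peak nearer than 94306 bp. The rest of the 12 lay near Gm9920 in Deptor, near Dnah5, near Vgll4 in an intron of Atg7, near Snord83b, and near Col19a1. The regions of Lima1, Gm9920, Dnah5 and Snord83b are on chromosome 15.

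The region near Col19a1 (chr1:24611121-24616623) stands apart. It held 6072 and 4225 tags, the most of the class in both libraries, while the next held 560 in the myogenic library. The deposited fold enrichment there was 0.86 and 1.30, and 82.7% of the 50-base stretches of its sequence also occur in the mitochondrial genome. No other of the 2485 regions had any such stretch, and leaving it out left 2484 regions and a promoter share of 26.3%.

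The study names 275 genes raised with LSD1(OE) and lowered on Lsd1 knockdown in adipogenic medium, and 74 with the opposite change. These lists were chosen from RNA-seq of C2C12 cells with altered Lsd1, among genes that also differed between wild-type cells in myogenic and adipogenic medium. They are therefore independent of neither the overexpression nor the media. Of the first list 53 of 275 genes (19.3%) were the nearest gene of a region of the class, against 8.04% of all annotated genes, and 9 (3.27%) had one at the promoter, against 2.47%. A region counts for its nearest gene alone, so the 9 do not include Deptor, whose first TSS lies within 2000 bp of the centre of the region credited to Gm9920. A region shared by the myogenic and LSD1(OE) libraries was nearest to 115 (41.8%) of the same genes, against 19.3% of all annotated genes. A region of all 3 libraries was nearest to 167 (60.7%) of them, against 27.5%. Of the 53 genes, 4 had no region with an LSD1(OE) peak, beside 27.2% of all nearest genes of the class. Of the second list, in which 73 genes are distinct, 7 (9.59%) had a region of the class and 3 (4.11%) had one at the promoter. A region of all 3 libraries was nearest to 49 (67.1%) of the 73, and 2 of the 7 genes had no region with an LSD1(OE) peak. Genes of these lists more often had an Lsd1 region of any class, with at least one at 246 of the 275, 70 of the 73 and 15806 of all 26180 genes. The part of that in these shares was not tested.

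The promoters of the first list were mostly weak in the adipogenic library. Lmod3, which nucleates actin thin filaments, had 69 tags (score 227) and 52 tags (score 53.1) at chr6:97252350-97253364. Srl, sarcalumenin of the sarcoplasmic reticulum, had 2 adjacent promoter regions with myogenic scores of 108 and 114.5 and adipogenic scores of 60.6 and 54.7. Tnnt1, slow troponin T, scored 93.3 and 57.3, and Ank1, whose muscle form anchors the sarcoplasmic reticulum, scored 97.0 and 65.0. Stronger in the adipogenic library were Bbx, named above, and Akt2, a kinase of insulin signalling. Akt2 had scores of 161 and 256 and no LSD1(OE) peak nearer than 20019 bp. Cog5, of the Golgi complex, scored 113 and 174, and Vasp, an actin regulator, 153 and 57.1, with an LSD1(OE) peak 146 bp away. Vasp alone of the 9 genes also had a promoter region with an LSD1(OE) peak. On the second list, Enho, which encodes the peptide adropin, scored 412 and 152, Dhrs7b scored 113 and 53.0, and Cd53 scored 50.7 and 63.0.

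Among other gene groups, the share of genes with a region of the class was highest for extracellular matrix and adhesion genes, with 13 of 36 (36.1%) against 8.04% of all annotated genes. They included collagens (Col1a2, Col3a1, Col4a1, Col4a2, Col5a1 and Col6a3), integrins (Itga5, Itgb1 and Itgb5), Lamc1, Mmp2, Ncam1 and Tnc. The best-ranked were an intron of Col1a2 (scores of 233 and 194, with an LSD1(OE) peak 79 bp away) and a region 139586 bp before Col4a2 (362 and 167), and Col6a3 alone had one at the promoter. Of the 13 genes, 1 had no region with an LSD1(OE) peak. Other classes were also above their share of all annotated genes at this list of 36. Regions of all 3 libraries were nearest to 28 (77.8%, against 27.5%). Those of the myogenic and LSD1(OE) libraries were nearest to 19 (52.8%, against 19.3%), and those of both adipogenic libraries to 5 (13.9%, against 4.33%). A region of any class was nearest to 33 of the 36, and to 15806 of all 26180 genes.

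Of 27 myogenic transcription factors and cofactors 8 (29.6%, against 8.04% of all genes) were nearest to a region of the class, among them Eya4, Mef2a, Mef2d, Mrtfa, Mrtfb, Myf6 and Tcf3. Mrtfb, a coactivator of serum response factor, had the only one at a promoter, with 118 tags (score 349) and 103 tags (score 157). An intron of Mef2d, an activator of muscle genes, scored 224 and 145 with an LSD1(OE) peak 294 bp away. All 8 genes also had a region with an LSD1(OE) peak. A region of any class was nearest to 25 of the 27, and to 15806 of all 26180 genes. Other classes were also above their share of all genes at this list. Regions of all 3 libraries were nearest to 17 of the 27 (63.0%, against 27.5%). Those of the myogenic and LSD1(OE) libraries were nearest to 13 (48.1%, against 19.3%). Of 39 genes of the sarcomere and contraction 9 (23.1%) had a region, namely Casq2, Mybpc1, Myl1, Myl4, Myom1, Nrap, Tnni1, Tnnt1 and Tnnt2, and 8 (20.5%) had a region of the myogenic and LSD1(OE) libraries, against 8.04 and 19.3% of all genes. Regions of all 3 libraries were nearest to 16 of the 39 (41.0%), against 27.5% of all genes. The promoter of Myl4, the atrial and embryonic light chain of myosin, ranked first with 87 tags (score 301) and 124 tags (score 207) at chr11:104549714-104551614, centred 1 bp from the TSS. An intron of Tnnt2, cardiac troponin T, scored 515 and 160.

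Of 35 adipogenic and brown fat genes 7 (20.0%, against the same 8.04%) had a region: Cebpa, Ebf1, Insr, Irs2, Klf4, Lpl and Ucp1. Those of Ebf1 (432 and 86.3, with an LSD1(OE) peak 284 bp away) and Insr (267 and 65.9) were at promoters. The region 11859 bp before Ucp1, the uncoupling protein of brown fat, had 117 tags (score 505) in the myogenic and 105 tags (score 144) in the adipogenic library, and no region nearest to Ucp1 held an LSD1(OE) peak. A region 127867 bp before Irs2, an adaptor of the insulin receptor, scored 132 and 136. For Notch and Wnt genes the count was 8 of 39 (20.5%, against 8.04%), led by distant regions nearest to Fzd1, a Wnt receptor (378 and 121), and Rbpj, the DNA-binding factor of the Notch pathway (366 and 107). For TGF-beta and BMP genes it was 6 of 29 (20.7%, against 8.04%), led by introns of Tgfb2 (212 and 246) and Smad1 (281 and 102). No gene of these last 2 lists had a promoter region of the class. Other classes were also above their share of all genes at the adipogenic, Notch and Wnt, and TGF-beta and BMP lists. In that order, regions of all 3 libraries were nearest to 45.7, 74.4 and 69.0% of the genes, against 27.5%. Those of the myogenic and LSD1(OE) libraries were nearest to 34.3, 43.6 and 51.7%, against 19.3%. Those of both adipogenic libraries were nearest to 20.0, 15.4 and 24.1%, against 4.33%.

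The other lists, beside 8.04% of all annotated genes, were as follows. For the Lsd1 and CoREST complex it was 2 of 25 (8%), with an intron of Gse1 (94.8 and 89.4) and, for Zeb2, a region 117903 bp before the gene (59.97 and 126) and one at its promoter (131 and 51.4). For genes induced by glucocorticoids it was 1 of 21 (4.76%), with a region 32387 bp before Sgk1 (82.3 and 165), which was lost under all 7 alternatives of the rule. Of 19 AP-1 and immediate early genes 3 (15.8%) had a region, led by an intron of Maff (168 and 59.8) and a region nearest to Egr3 (158 and 55.3), of 38 cell cycle genes 3 (7.89%), led by a region 59026 bp before E2f3 (154 and 129) and the promoter of Rbl2 (306 and 74.2), and of 25 genes of oxidative phosphorylation 3 (12%), led by a region 32984 bp before Atp5o (366 and 151) and the promoter of Atp5b (225 and 91.9), with Cox5b (554 and 77.4) also at its promoter. Regions of all 3 libraries were nearest to 60, 85.7, 100, 44.7 and 20% of the genes of these lists in the same order, against 27.5%. These lists were written with earlier results of these data known, and with 1 library a condition their shares carry no test.

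The sequence was less GC-rich than that of regions of all 3 libraries, at promoters and elsewhere. Windows of 300 bases were centred on the myogenic summit or, in regions with no myogenic peak, on the adipogenic or then the LSD1(OE) summit. The median GC content was 51%, against 56.7% for regions of all 3 libraries and 50.3% for all merged regions. At promoters it was 60.7% against 65.3%, and elsewhere 49.3% against 52.0%. The GC box GGGCGG was found in 51.7% of the promoter windows of the class and 65.2% of those of all 3 libraries. The share was 52.0% over the promoter windows of all merged regions. Away from promoters the E-box CAGCTG was found in 33.6% of windows of the class, 37.4% of windows of all 3 libraries and 27.1% of windows of all merged regions. The AP-1 motif TGANTCA was found in 30.6, 30.4 and 22.1% of the same windows, and the Runx motif TGTGGT in 30.6, 31.7 and 28.2%. The C/EBP motif TTGCNNAA was found in 10.5, 12.1 and 12.9%, and in 19.8% of windows of both adipogenic libraries. Windows with over 50% repeat-masked bases made up 5.31% of the class, 2.59% of regions of all 3 libraries and 6.90% of all merged regions.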

How the data were processed

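Lsd1 ChIP-seq was measured in 3 conditions of C2C12 cells, with 1 ChIP and 1 input library each. The authors mapped reads of 50 bp with Bowtie2 to mm10. They ran MACS 1.4.2 on each ChIP library with the matching input, with 1e-05 as the limit of the p-value. The deposited lists give, for each peak, the count of ChIP tags, not normalized. They also give the deposited score, 10 times −log10 of the p-value. The deposited fold enrichment is the ratio of the peak to its local background, and the deposited FDR is in percent. Before scoring, MACS multiplied the ChIP tags of the myogenic, adipogenic and LSD1(OE) libraries by 1.90, 1.28 and 1.82 to match their inputs, which raises their scores unequally. A set of 3 further files, which repeat the peak positions with the score, were not used here.

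All peaks were pooled and merged where they overlapped by 1 bp. The strongest peak of each library gave a region's values. Regions were assigned to the nearest of 31647 TSSs of 26180 genes with curated RefSeq transcripts on GRCm38, the assembly of mm10, and no peak ran past the end of its chromosome. Of 682 list entries, 665 matched a current symbol and 17 an older one, and 9 symbols misread in the source tables were corrected. Shares have 95% Wilson intervals, which cover counting error only. With 1 library a condition no test between conditions was made. Regions were named by a rule: the 12 first-ranked promoter regions, the 12 first-ranked others, every promoter region of a gene on the study's LSD1 lists, the best-ranked 2 genes of each other list, and 3 regions on each side of the limit. A few items that the rule names are not reported here. The regions, the lists and the rule were chosen with earlier results of these data known. Alternatives changed the peak limit, peak number, overlap, scaling, promoter window and measure of strength. The steps were tested on simulated data. Python 3.11.15, NumPy 2.4.6, pandas 2.3.3 and SciPy 1.17.1 were used.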

Additional observations from a re-analysis of the deposited data

How the results depend on the processing

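The number of regions stayed between 1907 and 2484 under 6 of 8 alternatives and fell to 1233 with an FDR of at most 0.1% and to 1307 with a score of at least 100. Under those 2 limits the share of regions of both wild-type libraries without an LSD1(OE) peak was 16.4 and 15.3%, the promoter share 35.3 and 34.0% and the median log2 ratio of adipogenic over myogenic density −0.27 and −0.27. With equal numbers of peaks per library the 3 values were 21.4%, 38.3% and −0.40, and with scores divided by the scaling of MACS 20.4%, 33.7% and −0.32. The share without LSD1(OE) was 16.5% with intervals up to 500 bp apart merged and 13.5% when no LSD1(OE) peak was allowed within 2000 bp. The promoter share was 23.3% with a window of 1000 bp and 34.2% with 5000 bp. The direction of the density ratio was reversed with the deposited fold enrichment, to 0.28. Values under the other alternatives, including an overlap of at least 50% and the alternative chosen after seeing the data (leaving out the region like the mitochondrial genome), lay within the intervals of the main ones. Of the 57 named regions 30 were kept under all 7 alternatives of the rule, among them Sh3bgr, Pacsin3, Txlnb, Myl4, Nos1 and both Nhsl1 regions, while the Lmod3, Srl and Tnnt1 promoters were lost under the stricter limits and the Sgk1 region under all 7. No paired analysis was possible because each condition has 1 ChIP library. Without replicates, the spread between libraries of one condition is unknown. The cause of these changes was not tested.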
